A study of Mus musculus with 17 samples.

Results

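Cells drawn from the abdominal fluid of mice with ID8 ovarian tumours were set against the solid tumours growing on the ovary, across all genes. The libraries were chosen by their labels: 3 of the first ascites tap and 3 of orthotopic tumours, 6 of the 17 libraries of the series. ID8 is a line of mouse ovarian surface epithelial cells that became tumorigenic in culture, and the labels mark the line as wild type and name no drug or engineered allele for any of these groups. The first ascites tap was metastatic peritoneal fluid with its cells, drawn with a syringe at the first of several harvests from animals whose ovarian tumours had spread. Orthotopic tumours were primary tumour tissue on the ovary, formed after ID8 cells were placed under the bursa of the right ovary. For the mice that bore tumours, strain, age and days of harvest are not given in the labels used here. Nor do those labels give any link between a tap and a tumour from the same mouse. The series as a whole asked how the phenotype of ID8 cells and the cells around them differ with the tissue niche. The second ascites harvest and the cultured line appear below as values beside these groups, with no test.

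Ascites builds up in advanced ovarian cancer when fluid leaks into the peritoneal cavity and is not drained, and tumour cells float in it singly and as clusters. The cavity holds leukocytes even in health, above all macrophages, of which a large resident kind and a small monocyte-derived kind are told apart in the mouse. A solid tumour instead grows on blood vessels, with endothelial cells lining them and pericytes around them, and in a matrix laid down mostly by fibroblasts. Library preparation was from whole RNA, so a level is a sum over ID8 cells and all host cells in the sample.

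The 6 libraries held 24554458 to 37881829 counts in the taps and 27342134 to 38902048 counts in the orthotopic tumours. Tap replicate 3 stood apart in breadth, with 32846 genes holding a count, against 23363 to 25663 in the other 5. Genes of the mitochondrial genome took 2.27% to 5.69% of counts in the taps and 6.37% to 6.99% in the orthotopic tumours. Between libraries, Pearson's r of log2 levels across genes was 0.902 to 0.955 within the taps, 0.967 to 0.981 within the orthotopic tumours and 0.853 to 0.952 between them. The taps thus differed more from each other than the orthotopic tumours did. The p-values set a difference against the spread between libraries, estimated over those groups of the series that hold more than 1 library. The labels do not say that replicates came from separate mice, so that spread cannot be taken as spread between mice.

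Of 43629 genes in the count table, 22671 passed the filter on low counts and were tested. With edgeR's quasi-likelihood test and Benjamini-Hochberg adjustment over all of them, 358 genes passed an adjusted p of 0.05 (1.58% of those tested). Of these, 156 were higher in the first tap (0.688%) and 202 were lower (0.891%). The median log2 fold change of all tested genes, first tap over orthotopic, was 0.18. In all, 3084 tested genes (13.6%) had all 3 tap libraries above all 3 orthotopic libraries and 2503 (11%) had them below, called genes included. At an unadjusted p of 0.05, 12% of tested genes were higher and 6.9% lower (18.9% in all), and DESeq2 called 7.26% higher and 4.44% lower of the 22122 genes it gave an adjusted p. Counts of list members called, without overlap or at those levels, given further on, are to be read against these shares. The split moved with the scaling: with library size alone in place of trimmed-mean (TMM) factors, 19 genes were higher and 64 lower. A fit on the 6 libraries alone, which takes no spread from the other groups, called 8 higher and 114 lower.

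Single libraries decided much of the count. Without tap replicate 1, 2 or 3 the number called was 268, 25 and 925, and without orthotopic replicate 1, 2 or 3 it was 18, 23 and 120. Every one of the 358 called genes kept its sign of fold change in each of those 6 fits and in each other alternative fit in which it was tested. The genes were chosen by their call in these same libraries, so the kept sign is no independent support. Of the 156 genes higher in the tap, 140 had their highest value in tap replicate 2, 11 in replicate 3 and 5 in replicate 1. Of the 202 lower genes, 130 had their highest value in orthotopic replicate 2, 59 in replicate 1 and 13 in replicate 3.

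**Figure D1:**
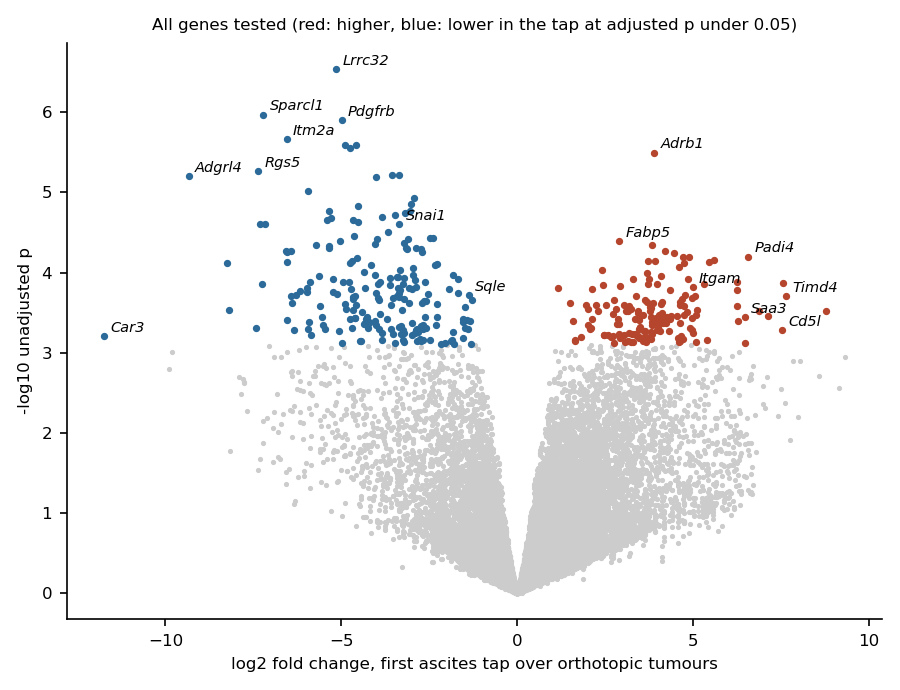
Each point is 1 of the 22671 genes tested, with its log2 fold change of the first ascites tap over orthotopic tumours on the horizontal axis and −log10 of its unadjusted p on the vertical axis. Red points (156 genes) were higher and blue points (202 genes) lower at an adjusted p under 0.05, and grey points did not pass.

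A core of 13 genes stayed past the threshold in all 6 fits that each leave out 1 library; they are named because of that, after their values were seen. Of these, 12 were lower in the first tap: Adgrl4, Cd34, Itm2a, Lrrc32, Nid1, Pdgfrb, Pdzrn3, Prelp, Rgs5, Rhoj, Sema7a and Sparcl1. Each of the other called genes lost its call in at least 1 of those fits, and 24 lower genes lost it in all 6. Among the 13 only Adrb1, which encodes the beta-1 adrenergic receptor, was higher. Its level was 30.4, 12.7 and 34.1 CPM (counts-per-million of the TMM-scaled library total) in the taps, against 2.05, 1.06 and 2.03 CPM in the orthotopic tumours. Each tap was above every tumour, with a log2 fold change of 3.90 ± 0.49 (SE, n = 3 against 3; adjusted p = 0.0090). Adrb1 stood at 10.6, 18.2 and 17.04 CPM in the second ascites harvest and at 0.848 CPM in the cultured line.

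Many vessel genes were lower in the taps, and pericyte genes most steadily so. Of 7 pericyte markers tested, 4 fell and none rose, with a list median log2 fold change of −3.60; 6 of the 7 had every tap under every tumour. Over all tested genes, 0.891% fell and 11% had every tap under every tumour. The pericyte signalling regulator Rgs5 had 0.383, 0.756 and 0.459 CPM in the taps, against 89.8, 123 and 49.1 CPM in the orthotopic tumours. The groups lay far apart, at a log2 fold change of −7.36 ± 0.96 (adjusted p = 0.011). Pdgfrb, the receptor by which pericytes answer platelet-derived growth factor, had 2.16, 1.81 and 2.07 CPM in the taps, against 54.7, 81.9 and 56.1 CPM in the tumours (log2 fold change −4.99 ± 0.56, adjusted p = 0.0090). The taps were nearly equal to each other and none came near a tumour, though the cultured line itself had 22.7 CPM. Cspg4, a surface proteoglycan of pericytes, fell by 3.01 ± 0.44, and Notch3, a receptor of mural cells, fell by 3.60 ± 0.65 on the log2 scale (adjusted p = 0.020 and 0.031). Leaving out 1 library left 2 to 5 pericyte markers called, and 4 were called on the 6 libraries alone. In whole-tissue RNA of this kind, fewer cells of a type and less RNA per cell cannot be told apart.

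Of 14 endothelial markers, 6 fell and none rose, with a list median of −3.25. In all, 10 had every tap under every tumour. The groups overlapped for Esam, Flt1, Eng and Robo4, at log2 fold changes of 1.15, 0.61, −0.53 and −0.51. Cdh5, the cadherin that joins endothelial cells, had 0.493, 2.31 and 1.03 CPM in the taps, against 45.9, 73.8 and 28.7 CPM in the orthotopic tumours. Every tap was far under the lowest tumour (log2 fold change −5.28 ± 0.79, adjusted p = 0.020). Kdr, the main receptor for vascular endothelial growth factor, had 16.1, 6.16 and 38.7 CPM in the taps, against 318, 254 and 175 CPM in the tumours (log2 fold change −3.62 ± 0.66, adjusted p = 0.031). Tap replicate 3 was the highest of the taps and still well under every tumour. Pecam1, Emcn, Tek and Plvap, other endothelial surface proteins, fell, with log2 fold changes of −2.62, −5.98, −3.95 and −2.67. Without orthotopic replicate 1 or 2, 0 endothelial markers were called, and without tap replicate 2 there was 1. On the 6 libraries alone 3 were called, and with library size alone 2.

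Adgrl4, an adhesion receptor of endothelial cells, held 2 counts in all 3 taps together and 1859 in the 3 orthotopic tumours. The ratio of summed, scaled counts was 777 with an exact 95% Poisson interval of 215 to 6420, which covers counting error only. Itm2a had 0.219, 0.378 and 0.115 CPM in the taps, against 39.4, 16.2 and 12.1 CPM in the tumours, and Sparcl1, a secreted matrix-associated protein, had 0.438, 0.0756 and 0.994 CPM against 63.0, 97.4 and 65.4 CPM. Both genes showed every tap far under every tumour, with log2 fold changes of −6.55 ± 0.78 and −7.22 ± 0.81. Cd34, a sialomucin of endothelial and progenitor cells, and the small endothelial GTPase Rhoj fell, with log2 fold changes of −4.02 and −3.56. Lrrc32, which anchors latent TGF-beta at the cell surface, had 0.821, 0.680 and 0.765 CPM in the taps, against 21.7, 38.5 and 20.1 CPM in the tumours. With a log2 fold change of −5.14 ± 0.51, it had the smallest adjusted p of any gene tested, 0.0064.

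In the Notch pathway 4 of 14 genes fell and none rose, with a list median of −0.96. Dll4, the Notch ligand of sprouting vessels, fell by 4.91 ± 0.96, and the target repressors Hey1 and Heyl had log2 fold changes of −2.94 ± 0.42 and −5.54 ± 1.13 (adjusted p = 0.034, 0.018 and 0.038). The fourth was Notch3, given above with the pericyte markers. Hey1 had 1.31, 0.983 and 1.34 CPM in the taps, against 11.4, 9.11 and 7.55 CPM in the tumours, so the groups were well separated. The list was mixed: 6 of the 14 fold changes were above 0 and 8 under 0. Every tap was under every tumour for 7 genes. Jag1 and Notch2 had every tap above every tumour, without a call (log2 fold changes 1.34 and 1.37). With 1 library left out, 0 to 5 Notch genes were called lower.

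Many fibroblast and matrix genes were lower in the taps. Of 25 matrix glycoproteins and proteoglycans, 10 fell and none rose, with a list median of −3.14. Of 16 fibrillar collagen and crosslinking genes 4 fell, of 18 basement membrane genes 4 fell, and of 11 fibroblast markers 4 fell; 0 genes of these 3 lists rose. Among the fibroblast markers, 7 had every tap under every tumour. Twist2 and Dcn overlapped, with log2 fold changes of 1.14 and 0.36. Col3a1, a fibrillar collagen chain of soft tissue, had 21.4, 20.03 and 3.25 CPM in the taps, against 701, 1497 and 437 CPM in the orthotopic tumours. The highest tap lay more than an order of magnitude under the lowest tumour (log2 fold change −5.88 ± 1.07, adjusted p = 0.031). Col1a1, which the cultured line holds at 885 CPM, had 50.3, 61.8 and 5.32 CPM in the taps, against 1300, 1562 and 712 CPM in the tumours. Its groups did not overlap, yet its adjusted p was 0.051 and it was not called.

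Lum, a collagen-binding proteoglycan of fibroblasts, had 1.31, 0 and 0.229 CPM in the taps, against 52.6, 71.7 and 24.7 CPM in the tumours (log2 fold change −6.53 ± 1.35, adjusted p = 0.039). The fibrillin Fbn1, the scaffold of microfibrils, had 4.65, 17.4 and 3.33 CPM in the taps, against 197, 305 and 152 CPM in the tumours. The matricellular proteins Postn and Tnc fell, with log2 fold changes of −5.34 ± 0.87 and −3.27 ± 0.65, and the microfibril protein Mfap4 fell by 7.25 ± 1.33 on the log2 scale. Prelp, a proteoglycan that ties basement membrane to collagen, had 8.05, 7.41 and 19.97 CPM in the taps, against 354, 347 and 138 CPM in the tumours. Even tap replicate 3, the highest, was far under orthotopic replicate 3, the lowest. Nid1, the nidogen that links laminin to collagen IV, had 2.44, 1.97 and 1.57 CPM in the taps, against 59.3, 65.1 and 37.7 CPM in the tumours. Its log2 fold change was −4.76 ± 0.58 (adjusted p = 0.0090).

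Not every matrix gene followed. Fn1, which encodes fibronectin, had 2587, 21505 and 3198 CPM in the taps, against 2279.8, 759 and 2215 CPM in the orthotopic tumours. All 3 taps were above all 3 tumours, and tap replicate 2 was the highest by far, but the difference was not called (log2 fold change 2.38 ± 0.96, adjusted p = 0.21). The elastin gene Eln had 7.97, 5.63 and 586 CPM in the taps, against 152, 42.3 and 43.3 CPM in the tumours, so tap replicate 3 exceeded every tumour and the others were under all of them. With 1 library left out, 0 to 10 matrix glycoprotein genes were called lower, with 0 without orthotopic replicate 1 or 2 and 1 without tap replicate 2. Of the fibroblast, fibrillar collagen, metalloproteinase and Wnt lists 0 genes were called without any 1 of those 3 libraries, and of the basement membrane list 1 was. On the 6 libraries alone 4 matrix glycoprotein and 2 fibroblast genes were called, and with library size alone 1 and 0.

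Among metalloproteinases and their inhibitors, 4 of 21 fell and none rose. Mmp2, the gelatinase of stromal cells, had 3.998, 2.76 and 0.803 CPM in the taps, against 170.3, 451 and 101 CPM in the tumours (log2 fold change −6.57 ± 1.08, adjusted p = 0.024). The groups were separated by more than an order of magnitude. The membrane-bound Mmp16 and the aggrecanases Adamts4 and Adamts5 fell, with log2 fold changes of −6.42, −3.14 and −2.47. Of 27 Wnt pathway genes, 3 fell: the secreted inhibitors Sfrp1 (−4.46 ± 0.99) and Sfrp2 (−5.64 ± 1.01) and the agonist Rspo3. Rspo3 held no count in any tap, against 1.71, 1.596 and 0.579 CPM in the tumours, and was at least 38.5-fold lower, taking 3 counts over the tap group as its floor. Bmp7, a bone morphogenetic protein, had 5.17, 1.97 and 4.93 CPM in the taps, against 169, 89.1 and 46.3 CPM in the tumours. The line held no count of Bmp7 and the single healthy ovary library 7.004 CPM, under every orthotopic tumour.

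**Figure D2:**
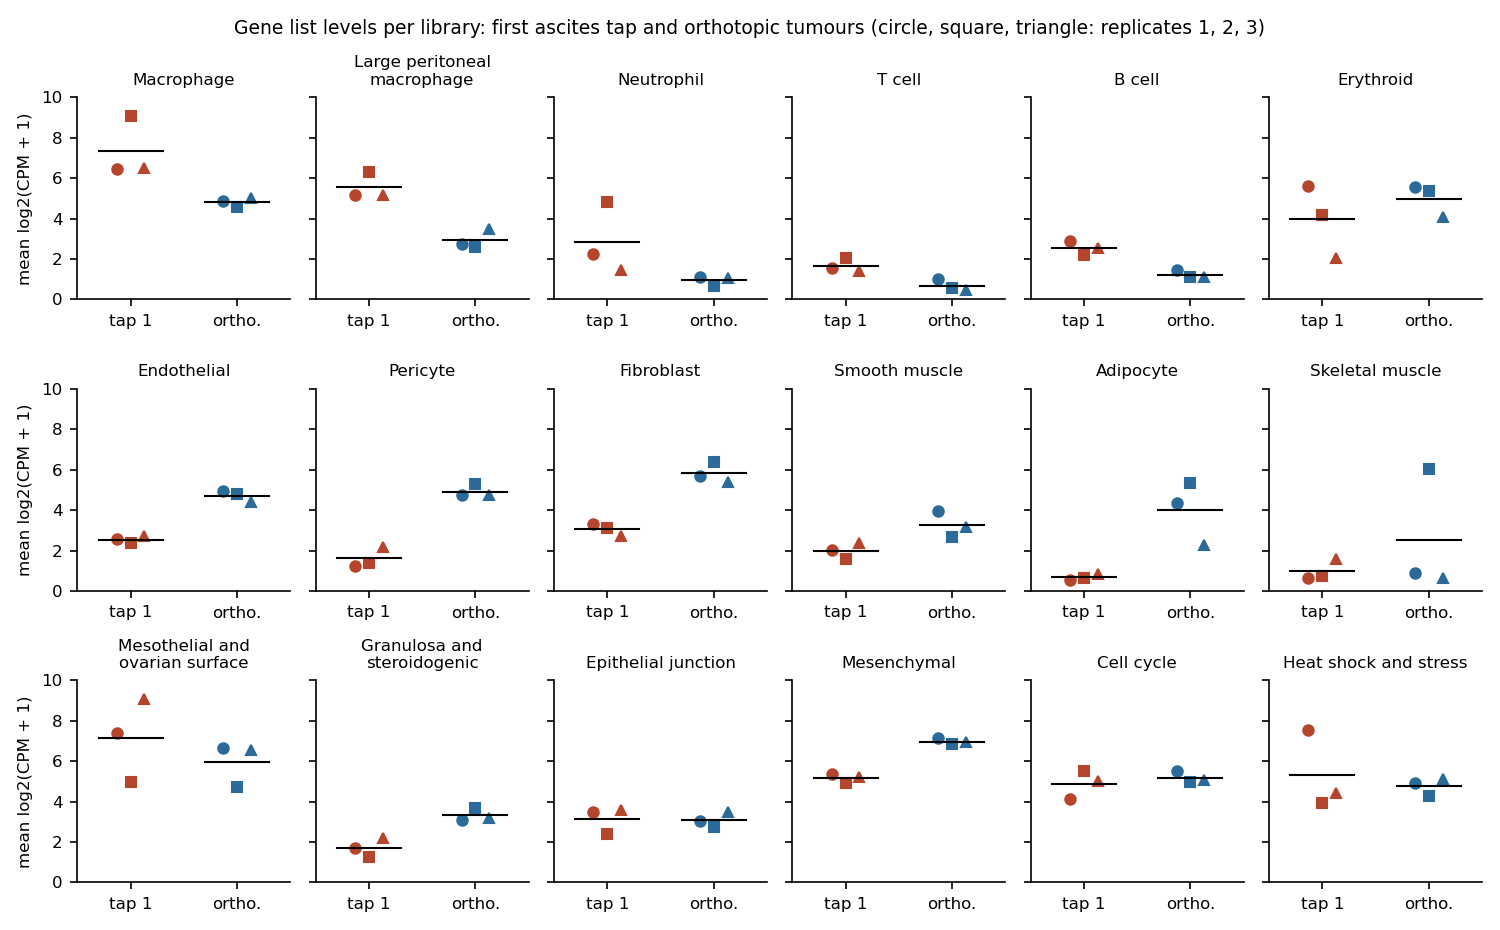
Each panel shows 1 gene list, with the mean log2(CPM + 1) of its members in each library on the vertical axis, the 3 first taps (red) left of the 3 orthotopic tumours (blue); circle, square and triangle are replicates 1, 2 and 3 and the bar is the group mean. Macrophage, T cell and B cell levels were higher in every tap than in every tumour, endothelial, pericyte, fibroblast, adipocyte and mesenchymal levels lower, and cell cycle levels overlapped.

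Adipocyte genes had a lower list level in every tap, at levels that varied between the tumours, while skeletal muscle list levels overlapped between the groups. The gene with the largest fall, Car3, a carbonic anhydrase of fat and muscle, had 0, 0 and 0.191 CPM in the taps, against 186, 442 and 21.6 CPM in the orthotopic tumours (log2 fold change −11.76 ± 2.57, adjusted p = 0.045). Orthotopic replicate 2 was the highest and replicate 3 the lowest, and the healthy ovary library had 1078 CPM. Car3 passed in none of the 6 fits that leave out 1 library: the log2 fold change of Car3 was then −15.63 to −10.80, with an adjusted p of 0.059 to 0.17 (edgeR). The adipocyte list followed the same order, with mean log2(CPM + 1) of 0.52, 0.65 and 0.85 in the taps against 4.37, 5.35 and 2.28 in the tumours, though 0 of its 8 members were called by edgeR (7 fell at an unadjusted p of 0.05, and 6 with DESeq2). Skeletal muscle genes stood highest in orthotopic replicate 2: the list level was 0.65, 0.74 and 1.58 in the taps, against 0.89, 6.05 and 0.65 in the tumours. Of the 7 genes in that list, 0 were called by edgeR and 0 separated the groups (5 were lower at an unadjusted p of 0.05, and 1 with DESeq2). Fndc5, a membrane protein of muscle, had 0.383, 0.983 and 1.15 CPM in the taps, against 142, 228 and 24.2 CPM in the tumours. Its 142 CPM was in orthotopic replicate 1, where the skeletal muscle list lay within the range of the taps. The part of adjoining fat and muscle in the fall of Car3 and Fndc5 was not tested. Mcpt1, a mast cell protease with closely related family members, had 0, 0.0756 and 0.153 CPM in the taps, against 59.0, 2.33 and 5.63 CPM in the tumours, and orthotopic replicate 1 was far above the others.

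Macrophage genes were higher in the taps. Of 14 macrophage markers, 7 rose and none fell (0.688% of all tested genes rose), and 12 of the 14 had every tap above every tumour. The list median was 3.07, against 0.18 for all tested genes. Itgam, the integrin chain of myeloid cells known as CD11b, had 376, 2717 and 348 CPM in the taps, against 30.4, 14.6 and 62.7 CPM in the orthotopic tumours. Tap replicate 2 was several times the others, and the lowest tap was still above the highest tumour (log2 fold change 5.00 ± 0.92, adjusted p = 0.031). Csf1r, the receptor on which macrophages depend, had 183, 1489.9 and 241 CPM in the taps, against 69.0, 52.9 and 77.5 CPM in the tumours (log2 fold change 3.26 ± 0.71, adjusted p = 0.044). Adgre1, which encodes the F4/80 antigen, had 87.0, 556 and 73.1 CPM in the taps, against 26.2, 20.04 and 19.9 CPM in the tumours. In both genes tap replicate 2 again led, and neither gene overlapped between the groups.

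The lysozyme gene Lyz2, the scavenger-type glycoprotein gene Cd68, the lipopolysaccharide co-receptor Cd14 and the complement gene C1qa were the other macrophage markers that rose, by 4.84, 3.36, 2.75 and 2.68. Lyz1, at a log2 fold change of 6.49 ± 1.46, has a sequence close to that of Lyz2, so the split of reads between them is uncertain. In the second ascites harvest the macrophage list stood at a mean log2(CPM + 1) of 8.07, 7.995 and 7.25, next to 6.47, 9.10 and 6.50 in the first, against 4.85, 4.57 and 5.00 in the tumours. The cultured line was at 0.61.

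These calls depended on single libraries and on the fit. With all 6 libraries kept, 0 macrophage markers were called by edgeR with library size alone, and 0 on the 6 libraries alone, while DESeq2 called 12 higher. Without tap replicate 2, 0 macrophage markers were called, and likewise without any 1 of the orthotopic libraries, while without tap replicate 1 or 3 there were 9 and 12. The resident macrophage, neutrophil, T cell, chemokine receptor, complement, integrin, checkpoint, lipid and iron lists below also had 0 genes called higher without tap replicate 2, and without orthotopic replicate 1 or 2. On the 6 libraries alone the resident macrophage list had 2 called and the lipid and iron lists 1 each, and the other lists of that group 0. For the called markers Itgam, Csf1r, Adgre1, Lyz2, Cd68, Cd14 and C1qa each of the 3 taps exceeded each of the 3 tumours. These genes were picked by their call in the same libraries, so this is no separate support. In the same list Mertk and Ms4a7 overlapped between the groups and were not called.

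Genes of resident peritoneal macrophages were among the largest rises. Of 14 in the large peritoneal macrophage list, 4 rose and none fell, and the list median was 4.69. Every tap was above every tumour for 9 of the 14. For 1, Garnl3, every tap was under every tumour, without a call (log2 fold change −1.47). Cxcl13, Cd93, Lbp and Gata6 overlapped between the groups, at 2.91, 1.39, 0.55 and −0.43. Timd4, the phosphatidylserine receptor TIM-4 of tissue-resident macrophages, had 6.74, 11.3 and 19.4 CPM in the taps, against 0, 0.133 and 0.0526 CPM in the orthotopic tumours. It was near absent from the tumours and present in every tap, and unlike most higher genes its highest value was in tap replicate 3 (log2 fold change 7.64 ± 1.45, adjusted p = 0.033). F5, which encodes coagulation factor V and is made by mouse peritoneal macrophages, had 35.1, 147 and 31.9 CPM in the taps, against 1.25, 1.26 and 2.29 CPM in the tumours. Selp, or P-selectin, had 13.7, 82.0 and 13.8 CPM in the taps, against 1.64, 1.26 and 1.16 CPM in the tumours, and Prg4, the lubricating proteoglycan, had 142, 238 and 107 CPM against 2.73, 1.93 and 14.8 CPM. Again no tap overlapped a tumour in any of the 4 genes.

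Gata6, the transcription factor that sets the identity of large peritoneal macrophages, could not mark them here, since the cultured line had 274 CPM. Its level was 277, 71.5 and 282 CPM in the taps, against 333, 278 and 240.5 CPM in the tumours, and it was lowest in tap replicate 2, where the macrophage markers were highest. It was not called (log2 fold change −0.43 ± 0.61, adjusted p = 0.75). Alox15, the 12/15-lipoxygenase of resident peritoneal macrophages, had 167, 1084 and 131 CPM in the taps, against 0.623, 0.465 and 26.4 CPM in the tumours. Orthotopic replicate 3 stood above the other tumours and under every tap, and the gene did not pass (adjusted p = 0.12). Cd5l, an apoptosis inhibitor secreted by tissue macrophages, had 41.7, 173 and 50.8 CPM in the taps, against 0.208, 0.133 and 1.05 CPM in the tumours (log2 fold change 7.55 ± 1.61, adjusted p = 0.042). Fcna, a ficolin of the lectin complement pathway made by mouse macrophages, had 17.1, 357 and 90.2 CPM in the taps, against 1.74, 0.864 and 3.42 CPM in the tumours.

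Promoters of 4 of the higher genes are printed below, because they hold a short motif bound by the myeloid factor PU.1. PU.1, encoded by Spi1, is the ETS-family regulator of macrophage and neutrophil genes, and Spi1 itself had 48.8, 268 and 33.9 CPM in the taps, against 17.96, 8.48 and 15.9 CPM in the tumours (log2 fold change 3.05 ± 0.78, adjusted p = 0.071, not called). Sequences are from RefSeq, assembly GRCm38.p6, 5′ to 3′ on the strand of the gene, from 250 bases before to 50 bases after the start, with GAGGAAG or its reverse complement CTTCCTC in capitals.
Itgam, chr7:128062390-128062689, plus strand: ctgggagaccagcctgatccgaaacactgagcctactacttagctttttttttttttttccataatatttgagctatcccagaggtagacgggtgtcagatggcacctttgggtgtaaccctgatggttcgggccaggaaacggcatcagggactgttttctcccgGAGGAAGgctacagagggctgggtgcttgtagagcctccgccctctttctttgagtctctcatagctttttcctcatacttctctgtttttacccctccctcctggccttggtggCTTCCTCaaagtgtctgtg
Csf3r, chr4:126024409-126024708, plus strand: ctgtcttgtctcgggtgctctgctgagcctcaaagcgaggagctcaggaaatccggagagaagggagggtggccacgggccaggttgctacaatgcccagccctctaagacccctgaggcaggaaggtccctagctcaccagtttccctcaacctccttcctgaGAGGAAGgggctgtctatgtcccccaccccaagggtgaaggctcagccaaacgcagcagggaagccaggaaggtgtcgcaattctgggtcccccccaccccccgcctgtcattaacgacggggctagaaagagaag
Cd5l, chr3:87357631-87357930, plus strand: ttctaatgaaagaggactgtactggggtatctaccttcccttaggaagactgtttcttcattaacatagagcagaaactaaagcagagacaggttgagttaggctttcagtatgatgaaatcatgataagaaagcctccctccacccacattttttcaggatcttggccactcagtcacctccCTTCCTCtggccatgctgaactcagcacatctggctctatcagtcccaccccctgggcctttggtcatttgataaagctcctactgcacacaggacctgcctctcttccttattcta
Fcna, chr2:25627925-25628224, minus strand: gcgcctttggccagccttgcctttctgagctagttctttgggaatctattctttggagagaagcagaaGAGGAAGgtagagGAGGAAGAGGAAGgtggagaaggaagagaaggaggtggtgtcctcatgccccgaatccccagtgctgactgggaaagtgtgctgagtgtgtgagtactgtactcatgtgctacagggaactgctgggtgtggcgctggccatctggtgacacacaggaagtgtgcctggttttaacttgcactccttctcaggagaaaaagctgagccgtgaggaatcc

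In the promoter of Itgam the motif occurs 2 times, once on each strand, in that of Fcna 3 times, of which 2 overlap by 1 base, and in those of Csf3r and Cd5l once each. Of 127 RefSeq promoters of 113 genes called higher, 31 held GAGGAAG on either strand (24.4%). Among 168 promoters of 133 genes called lower 25 did (14.9%), and among 18029 promoters of 14316 tested genes 2477 did (13.7%). The GATA motif AGATAAG, searched on both strands, was in 3.94% of the higher, 2.98% of the lower and 2.33% of all promoters. These are matches of letters, which do not show that a factor binds.

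Neutrophil genes were highest in tap replicate 2. Of 12 neutrophil markers tested, 2 rose and none fell, with a list median of 5.16. In this list 7 had every tap above every tumour. Mpo, Mmp9, Ngp, Elane and Ltf overlapped between the groups, and the log2 fold change of Ltf was under 0, at −1.25. Csf3r, the receptor for granulocyte colony-stimulating factor, had 52.0, 354 and 24.4 CPM in the taps, against 4.65, 2.83 and 5.42 CPM in the orthotopic tumours (log2 fold change 5.06 ± 0.96, adjusted p = 0.033). Cxcr2, the chemokine receptor that draws neutrophils from blood, had 14.9, 48.0 and 1.45 CPM in the taps, against 0.415, 0.133 and 0.263 CPM in the tumours (log2 fold change 6.27 ± 1.298, adjusted p = 0.039). In both genes tap replicate 2 was highest and tap replicate 3 lowest of the taps, and no tap overlapped a tumour. S100a8, the abundant cytosolic calprotectin chain, had 9.83, 44.9 and 1.53 CPM in the taps, against 0.882, 0.0665 and 0.474 CPM in the tumours, and did not pass (adjusted p = 0.078). Ly6g, the defining surface marker, was at 0.0274, 1.44 and 0.191 CPM in the taps, and no tumour library held a count of it.

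Of the 15 higher genes with the largest fold changes, several others belong to myeloid cells. Padi4, the peptidylarginine deiminase of granulocytes and macrophages, had 30.0, 377 and 80.1 CPM in the taps, against 1.40, 0.366 and 3.32 CPM in the tumours (log2 fold change 6.57 ± 1.103, adjusted p = 0.026). Saa3, an acute-phase serum amyloid made by macrophages, had 191, 100.3 and 161 CPM in the taps, against 1.43, 0.133 and 3.45 CPM in the tumours. Saa3 was more even among the taps than Padi4, and its lowest tap was replicate 2. Fpr1, Clec4e and Bst1, a formyl peptide receptor, a C-type lectin receptor and an ectoenzyme of myeloid cells, rose by 5.01, 5.32 and 5.09. Hal, histidine ammonia-lyase, had 1.095, 99.9 and 24.6 CPM in the taps, against 0.182, 0.199 and 0.658 CPM in the tumours, and Slfn4, a Schlafen family gene, had 27.5, 186 and 9.22 CPM against 0.363, 1.73 and 0.842 CPM. In the interferon response list of 19 genes only Oas2, an RNA-sensing synthetase, rose, by 5.12 ± 1.02.

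**Figure D3:**
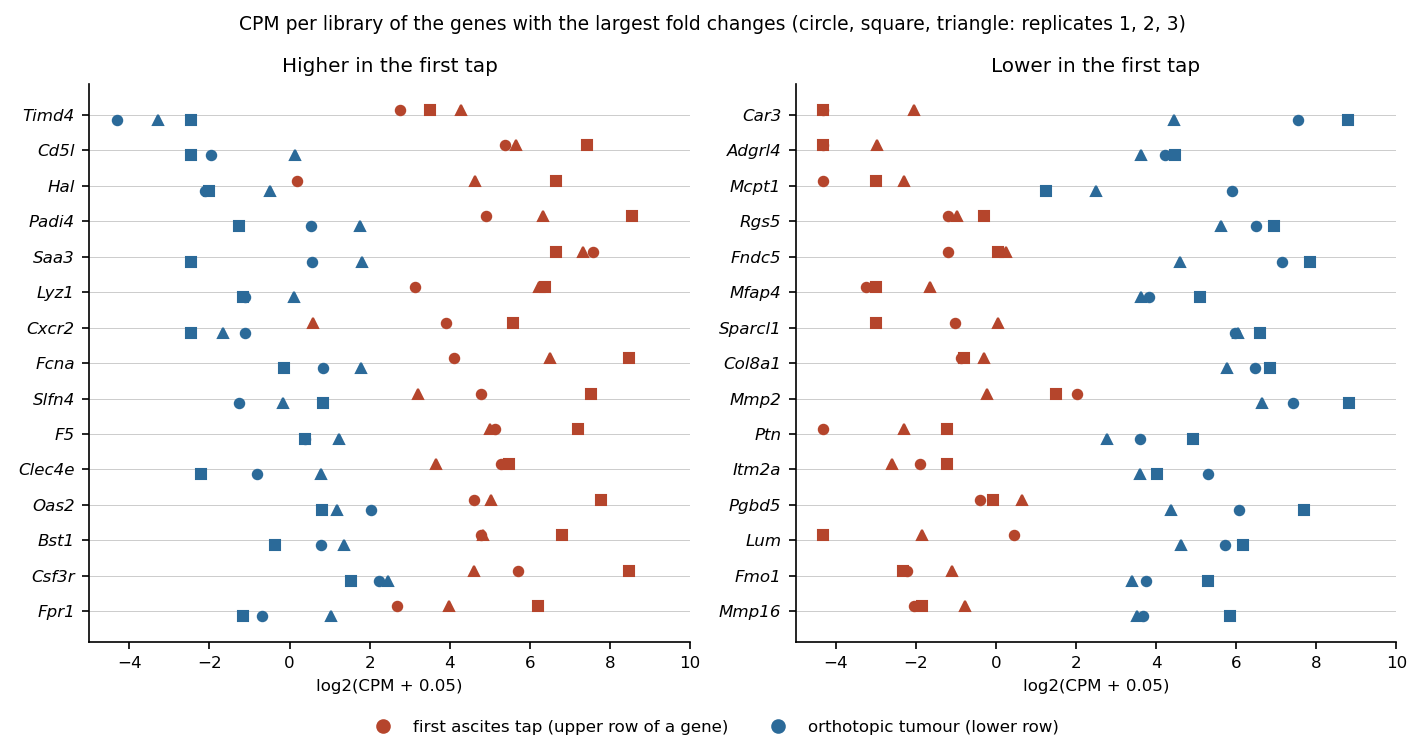
For the 15 genes with the largest fold changes in each direction, log2(CPM + 0.05) in each library is on the horizontal axis, first taps in red (upper row of a gene) and orthotopic tumours in blue (lower row); circle, square and triangle are replicates 1, 2 and 3. In the left panel tap replicate 2 (square) holds the highest value for most genes, and Cd5l, Padi4 and Csf3r lie to the right of all tumours in every tap; in the right panel Car3, Adgrl4 and Rgs5 lie to the left of all tumours in every tap.

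Some chemokine receptors and complement genes were also called higher. Of 15 chemokine receptors, 4 rose, Ccr1, Ccr2 and Cxcr2 among them, and none fell, with a list median of 2.61. Ccr2, the receptor by which monocytes leave the marrow, had 63.6, 212 and 25.2 CPM in the taps, against 7.01, 5.65 and 9.24 CPM in the orthotopic tumours (log2 fold change 3.78 ± 0.76, adjusted p = 0.036). Tap replicate 2 was highest and replicate 3 lowest, and none overlapped the tumours. Of 18 complement genes, 4 rose: the anaphylatoxin receptors C5ar1 (3.93 ± 0.67) and C3ar1 (3.39 ± 0.65), properdin Cfp (4.77 ± 0.91) and C1qa. Every tap was above every tumour for 8 of the 18. For 2, Cfd and C7, every tap was under every tumour, without a call (log2 fold changes −9.82 and −3.29). Ccl6, a chemokine of myeloid cells, had 361, 2272 and 354 CPM in the taps, against 17.03, 12.96 and 88.5 CPM in the tumours, and was the only 1 of 23 tested chemokines to rise. Of 25 integrin genes, Itgam, its partner chain Itgb2 and Itgb7 rose, and none fell.

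Folr2, the folate receptor of tissue macrophages, had 24.9, 186 and 40.0 CPM in the taps, against 4.31, 4.92 and 4.32 CPM in the tumours (log2 fold change 4.21 ± 0.69, adjusted p = 0.024). Hmox1, the haem oxygenase, had 815, 1079 and 538 CPM in the taps, against 112, 70.5 and 137 CPM in the tumours, and was well separated (log2 fold change 2.93 ± 0.54, adjusted p = 0.031). Slc11a1, the metal transporter of phagosomes, rose by 3.99 ± 0.73. Fabp5, a fatty acid binding protein, was even among the taps at 12.5, 11.1 and 17.4 CPM, against 1.76, 2.16 and 1.53 CPM in the tumours (log2 fold change 2.91 ± 0.47, adjusted p = 0.024), and the cultured line had 25.6 CPM. Gpnmb, a glycoprotein of lipid-laden macrophages, rose by 3.70 ± 0.65. Sirpa and Vsir, both inhibitory receptors of myeloid cells, were the checkpoint genes that rose, out of 20 tested.

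Receptors of alternatively activated macrophages had high fold changes without a call. Of 14 such genes 0 passed with edgeR, although their median was 3.82 and 8 of the 14 had every tap above every tumour. At an unadjusted p of 0.05 there were 10 higher, and 8 were called higher with DESeq2. Mrc1, the mannose receptor, had 93.0, 1582 and 86.6 CPM in the taps, against 25.2, 29.6 and 45.4 CPM in the tumours (log2 fold change 4.14 ± 1.09, adjusted p = 0.078). Arg1, the arginase of these cells, had 438, 952 and 352 CPM in the taps, against 9.06, 3.46 and 88.6 CPM in the tumours (adjusted p = 0.10). In each, 1 library stood far from its group, tap replicate 2 for Mrc1 and orthotopic replicate 3 for Arg1. Of 18 lysosome and cathepsin genes, 14 had every tap above every tumour and 0 passed with edgeR, with a list median of 1.12 (15 higher at an unadjusted p of 0.05, and 8 with DESeq2).

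MHC class II genes did not separate the groups. Of 9 tested, 0 were called by edgeR, 1 was higher at an unadjusted p of 0.05 and 1 with DESeq2, and 1 had no overlap between the groups. H2-Ab1 had 215, 454 and 58.0 CPM in the taps, against 187, 85.8 and 83.7 CPM in the orthotopic tumours. Tap replicate 3 was the lowest of all 6, although its Itgam was several times that of the highest tumour (log2 fold change of H2-Ab1 1.03 ± 0.67, adjusted p = 0.43).

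Of the lymphocyte lists, those of T cells, B cells and cytotoxic cells had higher levels in every tap than in every tumour. In those lists 1 gene was called, while plasma cell levels overlapped. The cytotoxic list, which includes natural killer genes, was at 0.75, 1.29 and 0.94 in the taps, against 0.54, 0.26 and 0.33 in the tumours. Of its 10 genes, 0 were called by edgeR, 4 were higher at an unadjusted p of 0.05 and 3 with DESeq2. The plasma cell list level was 2.89, 2.98 and 2.81 in the taps, against 3.52, 3.29 and 2.96 in the tumours, with a median log2 fold change of −0.11. None of its 8 genes was called by edgeR, 1 was lower at an unadjusted p of 0.05 and 1 with DESeq2, and 2 had every tap under every tumour. Of 16 T cell markers, 1 rose, and 12 had every tap above every tumour; the list median was 2.09. Cd5, a surface regulator of T cells and B-1 cells, had 1.59, 3.78 and 2.29 CPM in the taps, against 0.208, 0.133 and 0.368 CPM in the orthotopic tumours (log2 fold change 3.40 ± 0.74, adjusted p = 0.045). Bcl11b, a T lineage transcription factor, had 4.19, 6.27 and 4.70 CPM in the taps, against 1.22, 0.332 and 0.105 CPM in the tumours (adjusted p = 0.057, not called). Of 10 B cell markers, 0 were called by edgeR, 6 were higher at an unadjusted p of 0.05 and 5 with DESeq2, and 7 had every tap above every tumour.

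Genes of epithelial and mesenchymal state bear on the phenotype of the ID8 cells, but many are also made by host stroma. Of 20 mesenchymal genes, 6 fell (Pdgfrb, Postn, Mmp2, Fbn1, Col5a1 and Tnc) and none rose, with a list median of −1.303. Vim, the intermediate filament of mesenchymal cells and leukocytes, had 4024, 1039 and 822 CPM in the taps, against 2203, 1046 and 2459 CPM in the orthotopic tumours, and the groups overlapped (log2 fold change 0.04 ± 0.81, adjusted p = 0.99). In the cultured line the 6 genes that fell were at 22.7, 0.265, 2.41, 9.59, 90.7 and 2.52 CPM, in the order named. The endothelial, pericyte and fibroblast list levels moved with them, as given above, and the part of those cells was not tested. With 1 library left out, 1 to 7 mesenchymal genes were called.

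Of 11 transcription factors of the epithelial-to-mesenchymal transition, 1 fell and none rose, with a list median of −1.38. The list was mixed: 3 of the 11 fold changes were above 0 and 8 under 0. Every tap was under every tumour for 5 genes. Snai3 had every tap above every tumour, without a call. Zeb2 and Twist2 also had fold changes above 0, and both overlapped between the groups. Snai1, the zinc finger repressor of E-cadherin, had 1.81, 1.47 and 0.956 CPM in the taps, against 17.8, 15.1 and 10.5 CPM in the orthotopic tumours (log2 fold change −3.35 ± 0.51, adjusted p = 0.020). Its 3 taps were close together and far under the tumours, and the cultured line had 20.7 CPM. Snai2, a related repressor, had 4.52, 1.47 and 2.03 CPM in the taps, against 14.2, 14.2 and 6.84 CPM in the tumours, with 30.2 CPM in the line. Zeb1, another repressor of epithelial genes, had 49.5, 35.3 and 63.1 CPM in the taps, against 128, 152 and 107 CPM in the tumours. Neither Snai2 nor Zeb1 overlapped between the groups, and neither passed (adjusted p = 0.066 and 0.065). Without tap replicate 2, or orthotopic replicate 1 or 2, Snai1 was not called.

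Of 22 epithelial junction genes, 1 fell and none rose, and the list median of 0.26 was close to the 0.18 of all tested genes. Cdh1, or E-cadherin, had 37.8, 14.8 and 14.8 CPM in the taps, against 9.29, 5.52 and 14.4 CPM in the tumours, with 94.0 CPM in the line. The lowest taps and the highest tumour nearly touched, and Cdh1 was not called (log2 fold change 1.203 ± 0.656, adjusted p = 0.35). Ocln, the tight junction protein occludin, was the gene that fell, at 0.274, 0.151 and 1.07 CPM in the taps against 8.49, 9.54 and 4.58 CPM in the tumours. The line held no count of Ocln, and the healthy ovary had 20.7 CPM.

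**Figure D4:**
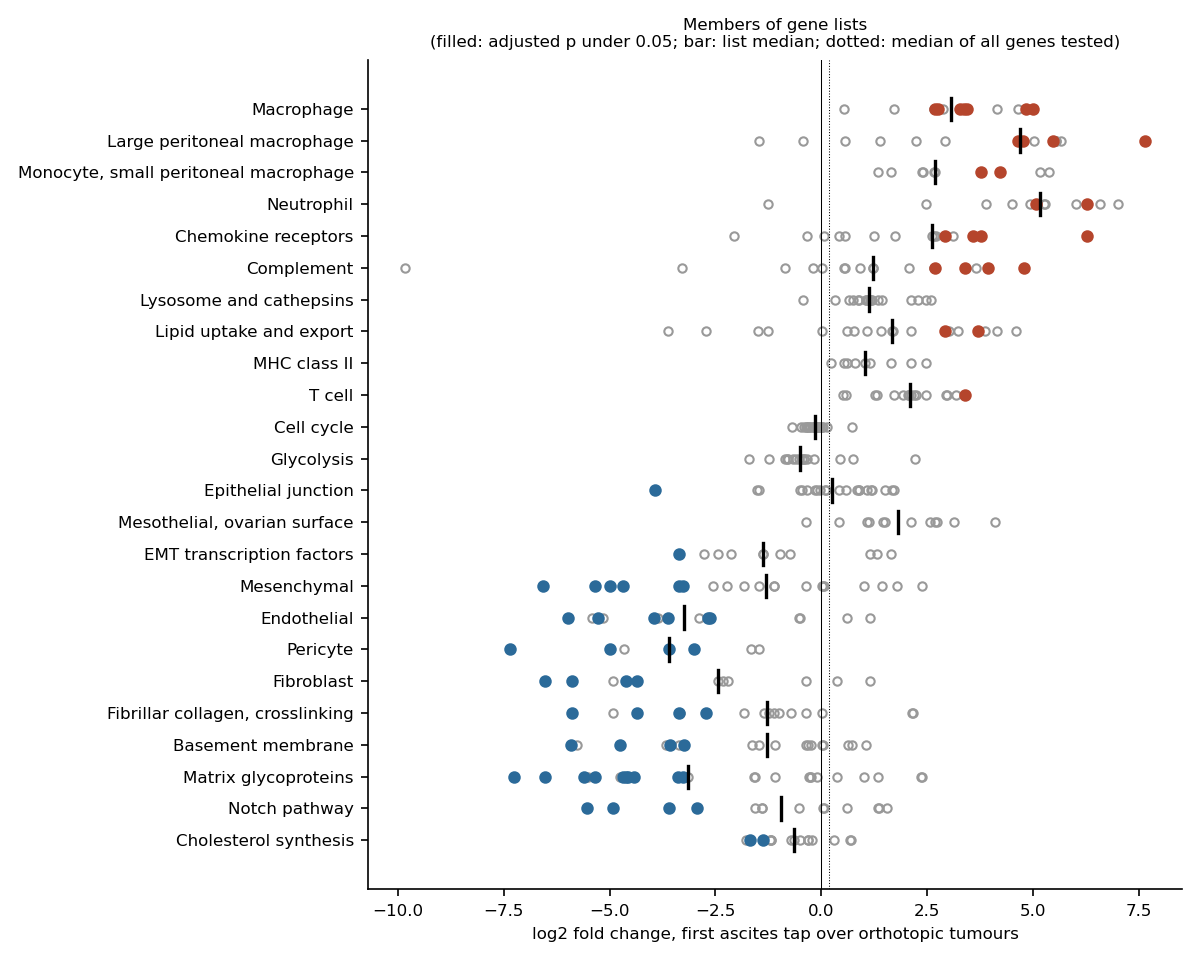
Each circle is a member of the gene list named at the left, at its log2 fold change of the first ascites tap over orthotopic tumours; filled circles passed an adjusted p of 0.05 (red higher, blue lower), the bar is the list median and the dotted line the median of all genes tested, 0.18. All 14 macrophage markers lie right of 0, all 7 pericyte markers lie left of 0, and the 23 cell cycle genes cluster around 0.

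Genes of proliferation did not differ in any called way. Of 23 cell cycle genes 0 were called in either direction by edgeR, 0 at an unadjusted p of 0.05 and 0 by DESeq2, and all 23 overlapped between the groups, with a list median of −0.16. Top2a, the topoisomerase of dividing cells, had 40.7, 171 and 107 CPM in the taps, against 195, 145 and 174 CPM in the orthotopic tumours. Tap replicate 1 was the lowest and the other 5 libraries lay together (log2 fold change −0.69 ± 0.66, adjusted p = 0.61). That library also stood apart in heat shock and stress genes, with a list level of 7.52, next to 3.91 and 4.45 in the other taps, against 4.92, 4.29 and 5.11 in the tumours. Hspb1, a small heat shock protein, had 1701, 27.2 and 222 CPM in the taps, against 149.5, 68.9 and 179 CPM in the tumours, and 0 of the 14 genes of that list were called by edgeR or DESeq2 (5 were higher at an unadjusted p of 0.05).

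Cholesterol synthesis genes were lower in the taps where called. Of 15 enzymes and regulators 2 fell and none rose, 8 had every tap under every tumour, and the list median was −0.64. Sqle, the squalene epoxidase, had 23.6, 17.6 and 28.4 CPM in the taps, against 64.4, 57.3 and 58.5 CPM in the orthotopic tumours (log2 fold change −1.37 ± 0.26, adjusted p = 0.033). Fdps, which makes farnesyl diphosphate, had 4.63, 5.22 and 6.46 CPM in the taps, against 16.3, 11.5 and 24.8 CPM in the tumours (log2 fold change −1.69 ± 0.31, adjusted p = 0.031). Both were tight within the taps, and the cultured line was above every tumour, with 149 CPM of Sqle and 77.6 CPM of Fdps. With 1 library left out, 0 to 2 of these enzymes were called. Of 16 glycolysis and 15 hypoxia genes, 0 were called in either direction by edgeR or DESeq2, with list medians of −0.50 and −0.40; at an unadjusted p of 0.05, 1 glycolysis gene was higher and 2 were lower, and 0 hypoxia genes passed.

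The cultured line gives a measure of how much of the change lies in genes that ID8 cells express in culture. Of the 156 genes higher in the tap, 108 (69.2%) were under 1 CPM in the single library of the line, and of the 202 lower genes 105 (52%) were, while 42.8% of all tested genes were. Pdzrn3, a ubiquitin ligase, and Sema7a, a membrane-bound semaphorin, were core lower genes that the line expressed. Pdzrn3 had 0.685, 1.51 and 1.99 CPM in the taps, against 52.2, 41.0 and 30.3 CPM in the tumours and 151 CPM in the line. Sema7a had 12.3, 16.7 and 8.49 CPM in the taps, against 125, 165 and 95.9 CPM in the tumours and 21.7 CPM in the line. In both, every tap was far under every tumour (log2 fold change −4.89 ± 0.59 and −3.36 ± 0.45).

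A set of 7 genes was at 20 CPM or more in the line and at 0.5 CPM or less in both healthy tissues. Of these, 0 were called between the taps and the tumours by edgeR or DESeq2, and 1 differed at an unadjusted p of 0.05. Their median log2 fold change was 0.50. Their median level was 8.22%, 5.99% and 3.51% of the line's in the taps, against 5.44%, 0.832% and 13.2% in the orthotopic tumours, and the ranges overlapped. Pax3, the best expressed of them outside culture, had 102.2, 14.9 and 59.2 CPM in the taps, against 49.4, 40.9 and 34.6 CPM in the tumours. Tap replicate 2, highest in macrophage genes, was lowest in Pax3. Mesothelial and ovarian surface genes, which the line also expresses, were likewise lowest among the taps in replicate 2: the list level was 7.38, 4.99 and 9.10 in the taps, against 6.67, 4.71 and 6.53 in the tumours, with 6.81 in the line, and 0 of its 12 genes were called by edgeR (3 were higher at an unadjusted p of 0.05, and 2 with DESeq2).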

How the data were processed

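RNA was extracted with Trizol and sequenced as total RNA after a modified directional NEBNext Ultra II preparation, per the labels' protocols. The authors deposited raw counts per gene, identified by Ensembl number and symbol; 2 deposited tables hold identical values and 1 was used. The submitters' processing notes name HISAT, HISAT2, featureCounts, DESeq2 and the builds hg19 and mm39, with no version; which build and strand setting gave these counts is not given in the sources used here, so no coordinates were taken from the counts, and overlapping or antisense genes may share reads. Of the table's columns, 1 matched no labelled sample and was not used. Of 43629 identifiers, 42462 matched the reference name table.

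Genes with over 0.5 CPM in at least 2 libraries were tested with edgeR 4.0.16 (R 4.3.3, limma 3.58.1): TMM factors, quasi-likelihood fit with robust dispersion, all 17 libraries in 1 fit with a mean per group (9 residual degrees of freedom), contrast first tap minus orthotopic. P-values were adjusted by Benjamini-Hochberg over all 22671 tested genes, with 0.05 as the threshold. CPM used the library total times its TMM factor, so CPM compare a gene between libraries, not genes with each other. A count of 3 in a library equals 0.0779 to 0.115 CPM over these 6 libraries. Errors of fold changes are SE of the contrast of 3 against 3 libraries. The spread behind them was estimated over the groups of that fit with more than 1 library. The script was tested on simulated counts. Alternatives were DESeq2 1.42.0, other scaling factors and filters, fewer libraries, a replicate block and leaving out each library.

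The text names genes by a rule: up to 15 per direction with the largest fold change among called genes without overlap, of at least 1 on the log2 scale and at least 10 CPM in the higher group, up to 5 members of a list by p, and list members whose values are described. The 60 gene lists, holding 777 symbols of which 1 had no identifier, were chosen with earlier results of these data known, as was the comparison, so a list's direction is no independent support. A few genes are not reported here.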

Additional observations from a re-analysis of the deposited data

How the results depend on the processing

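The main analysis called 358 genes, 156 higher and 202 lower. DESeq2 called 2590 (1607 higher, 983 lower), among them all 358; library size alone called 83 (19 and 64), a filter of over 1 CPM in at least 3 of the 6 libraries 549 (295 and 254), and a fit on the 6 libraries alone 122 (8 and 114). With DESeq2's size factors in edgeR there were 328 and with no filter 316. With each replicate left out in turn there were 18 to 925 called, 1 to 556 higher and 17 to 369 lower; the most came without tap replicate 3 and the fewest without orthotopic replicate 1. Same-numbered tap and orthotopic libraries deviated from their group means with correlations of 0.094, 0.062 and −0.137. Differently numbered libraries had −0.16 to 0.111. With so few libraries per group, these values cannot show whether a tap and a tumour came from the same mouse. A replicate block on the 6 libraries called 15 genes, 0 higher and 15 lower, with 2906 at an unadjusted p of 0.05. Library names in the labels carry the prefix S (tap 1.1, orthotopic 1) or SM (the rest of both groups). Chosen after seeing the data, a fit with the prefix as a term called 252, 86 higher and 166 lower, and a fit with SM libraries alone in both groups, 2 against 2, called 0 genes with edgeR and 3039 at an unadjusted p of 0.05; DESeq2 was not run on these. Of the 91 called genes named here, 0 changed sign in any alternative and 0 passed in every one. As they were chosen by their call in the same libraries, the kept sign is no independent support. Genes named without a call did change sign. The log2 fold change of Vim, 0.04 in the main analysis, was −0.053 with library size alone, −0.001 with DESeq2's factors and with DESeq2, −0.062 on the 6 libraries, −0.306 with the replicate block, −0.184 with the prefix term, −0.913 with SM libraries alone, and −1.032 to 0.412 with 1 replicate left out. The log2 fold change of Eln, 1.34, was −2.033 with the replicate block, −0.003 with the prefix term, and −3.54 to 2.223 with 1 replicate left out. The log2 fold change of Hspb1, 2.29, was −0.087 to 2.73, and the log2 fold change of Pax3, 0.50, was −0.166 to 0.839, with 1 replicate left out and −0.025 with SM libraries alone. The causes were not tested. Depth limits genes at low levels: 3 counts in a tap equal 0.0821 to 0.115 CPM.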

Other observations

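Further gene groups bear on the tissue around each sample. Granulosa and steroidogenic genes of the ovary had a list median of −2.95, and 7 of 11 had every tap under every orthotopic tumour, with 0 called by edgeR, 6 lower at an unadjusted p of 0.05 and 3 lower with DESeq2. Inha, the inhibin alpha chain of granulosa cells, had 23.4, 13.04 and 88.0 CPM in the taps, against 308, 405 and 220.4 CPM in the orthotopic tumours, and the cultured line had 3.44 CPM. Pf4, a chemokine of platelets that macrophages also make, had 13.7, 129 and 16.5 CPM in the taps, against 1.19, 2.06 and 2.92 CPM in the tumours, and rose by 4.68 ± 0.90 (edgeR, adjusted p = 0.034). It was the 1 of 8 platelet and megakaryocyte genes to rise, and its highest value was in tap replicate 2, as for the macrophage markers.

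Secreted and signalling genes outside those groups also passed. Serpine2, a protease inhibitor of the matrix, had 2.22, 0.831 and 2.33 CPM in the taps, against 66.3, 129.5 and 88.4 CPM in the tumours (log2 fold change −5.72 ± 0.92, adjusted p = 0.024). Igf2, the fetal growth factor, had 0.575, 0.151 and 0.880 CPM in the taps, against 3.17, 21.0 and 7.34 CPM in the tumours, and was the 1 of 11 genes of the IGF system to fall. Dusp1, an early response phosphatase, had 170.2, 246 and 95.6 CPM in the taps, against 32.3, 17.6 and 45.0 CPM in the tumours, the 1 of 17 immediate early genes to rise. Il1a, a proinflammatory cytokine, had 6.41, 10.7 and 5.43 CPM in the taps, against 1.04, 0.266 and 1.16 CPM in the tumours. In each of these 4 genes no tap overlapped a tumour, and the cultured line held 0.053 CPM of Serpine2, 0.185 CPM of Igf2, 54.4 CPM of Dusp1 and 0.106 CPM of Il1a. MHC class I presentation genes had 12 of 12 fold changes above 0, with a list median of 1.16 and 0 called by edgeR (4 higher at an unadjusted p of 0.05, and 3 with DESeq2).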
